A study of Mus musculus with 10 samples.

Results

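Described here are 10 genes of the neuronal and glial cytoskeleton in cortical neurons treated with lactacystin. They are the tubulins Tubb3, Tubb2a, Tubb5 and Tuba1a, the neuronal filament genes Ina, Nefl, Nefm and Nefh, and the filament genes of progenitors and glia, Nes and Vim. Members were all probe sets, the groups of short probes that measure 1 transcript, whose platform annotation gave 1 of these symbols after updating through the Entrez identifier. The 10 genes are among 8251 named ones on the array design U74Av2, and they had 16 of its 12422 probe sets that are not array controls. Of these 16, 12 were among the 9977 probe sets also measured on the earlier design U74A, and 4 were on U74Av2 alone. In all 15 of the 16 passed the filter on dim probe sets and were tested.

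Alpha and beta tubulins pair into the dimers that polymerise into microtubules, the tracks of axonal transport. Neurofilaments are built from light, medium and heavy subunits (Nefl, Nefm and Nefh) with alpha-internexin (Ina), which is abundant in developing neurons, and they support axon calibre. Nestin (Nes) and vimentin (Vim) form the filaments of neural progenitors and immature glia, and Gfap those of mature astrocytes.

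RNA came from cultured neocortical neurons of foetal Swiss albino mice of gestation day 15 to 16, with 1 array per sample. Cultures were exposed on day 5 in vitro to lactacystin, which inhibits the proteasome, at 1 µM in serum-free medium for 24 h (3 arrays) or 48 h (3 arrays), and control cultures were taken at 24 h (2 arrays) and 48 h (2 arrays). The stock of lactacystin was in DMSO, and the labels leave unsaid if controls received DMSO or if a replicate was its own culture, so a p-value here reflects sample-to-sample spread that could be technical. Of the 10 arrays 4 were of design U74A, with 1 in each group (replicate 3 of the 48 h lactacystin group and replicate 1 of the others), and 6 of U74Av2.

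Values are scaled signals, the deposited intensities after each array was brought to the same trimmed mean, and changes are log2 differences of the signal plus a pseudocount of 32, adjusted for array design. Changes and tests compare signal between samples for 1 probe set at a time. Sums over marker lists add several probe sets of an array, and bright probe sets weigh most in them. Ranks and percents of the highest signal on an array are descriptions alone. Correlations between arrays ran from 0.913 to 0.99, and the first principal component held 45.9% of the variance. Its relation to array design or to treatment was not tested. Among the 6984 shared probe sets tested with limma, 1038 (14.9%) passed an adjusted p of 0.05 between lactacystin and control at 24 h, 573 (8.20%) higher and 465 (6.66%) lower. At 48 h 722 (10.3%) passed, 473 (6.77%) higher and 249 (3.57%) lower. The median change over all 6984 was -0.03 at 24 h and 0.04 at 48 h.

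To place the 3 genes on which the results turn, the 250 bases before their annotated starts are given below from RefSeq sequences of assembly GRCm38.p6, 5′ to 3′ on the gene's strand. Capitals mark GC boxes (GGGCGG) and CCAAT boxes (CCAAT) on either strand, which do not overlap here.
Ina (chr19:47014431-47014680, + strand): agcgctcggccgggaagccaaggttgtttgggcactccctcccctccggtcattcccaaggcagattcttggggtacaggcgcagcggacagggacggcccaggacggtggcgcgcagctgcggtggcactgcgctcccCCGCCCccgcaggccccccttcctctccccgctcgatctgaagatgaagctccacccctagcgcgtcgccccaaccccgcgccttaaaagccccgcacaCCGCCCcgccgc
Tubb3 (chr8:123411303-123411552, + strand): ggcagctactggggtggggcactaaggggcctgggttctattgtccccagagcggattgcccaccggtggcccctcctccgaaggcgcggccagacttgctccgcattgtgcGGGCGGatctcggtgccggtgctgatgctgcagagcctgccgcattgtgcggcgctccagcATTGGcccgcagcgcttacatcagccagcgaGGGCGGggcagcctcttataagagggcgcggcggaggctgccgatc
Nes (chr3:87970843-87971092, + strand): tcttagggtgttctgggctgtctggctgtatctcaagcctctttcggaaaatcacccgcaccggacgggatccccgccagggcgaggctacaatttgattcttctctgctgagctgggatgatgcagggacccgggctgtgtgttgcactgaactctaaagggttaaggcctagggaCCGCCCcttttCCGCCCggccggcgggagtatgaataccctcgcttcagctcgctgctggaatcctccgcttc

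Each of the 3 windows held 2 GC boxes, and the Tubb3 window also held 1 CCAAT box. Of 32851 RefSeq promoter windows of the same length, 32.7% held a GC box and 33.8% a CCAAT box. The letters TATAAA (12.4% of all windows), TGANTCA (the AP-1 site, 6.75%) and GAANNTTC (6.69%), searched on both strands, were in none of the 3 windows. The GC content was 70.8% for Ina, 68.0% for Tubb3 and 58.8% for Nes, with a median of 52.4% over all windows. Entries were found for 7 of the 10 genes. Of the other 4 with an entry, Tubb2a held 2 GC boxes and 1 TATAAA, Tubb5 2 CCAAT boxes, Tuba1a 1 of each box, and Vim 2 CCAAT boxes and 1 TATAAA. A match describes the letters of the window and is not a measured binding site.

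Under lactacystin Ina was lower and Nes higher than in controls at 24 h and at 48 h. One of the Tubb3 probe sets, measured against a single control array at each time, was lower at 48 h, and the other did not pass. The other members did not pass the test at either time. Of the 12 probe sets on both designs, 3 were called at 24 h (1 higher, 2 lower), where 14.9% of all tested probe sets were called, and 3 at 48 h (1 higher, 2 lower), where the share of all was 10.3%. In these 12, with 2 probe sets each for Ina, Tuba1a and Tubb5, the change was below 0 for 10 at each time. The median of the 12 was -0.09 at 24 h and -0.23 at 48 h (-0.03 and 0.04 over all tested probe sets). The share of all probe sets below 0 was not taken. At 24 h some of the 10 were near 0, with Tubb5 (94788_f_at) and Tubb2a (94835_f_at) at -0.01. Lactacystin and control arrays did not overlap for 5 of the 12 at 24 h (36.2% of all tested probe sets) and for 8 of the 12 at 48 h (26.5% of all).

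**Figure D1:**
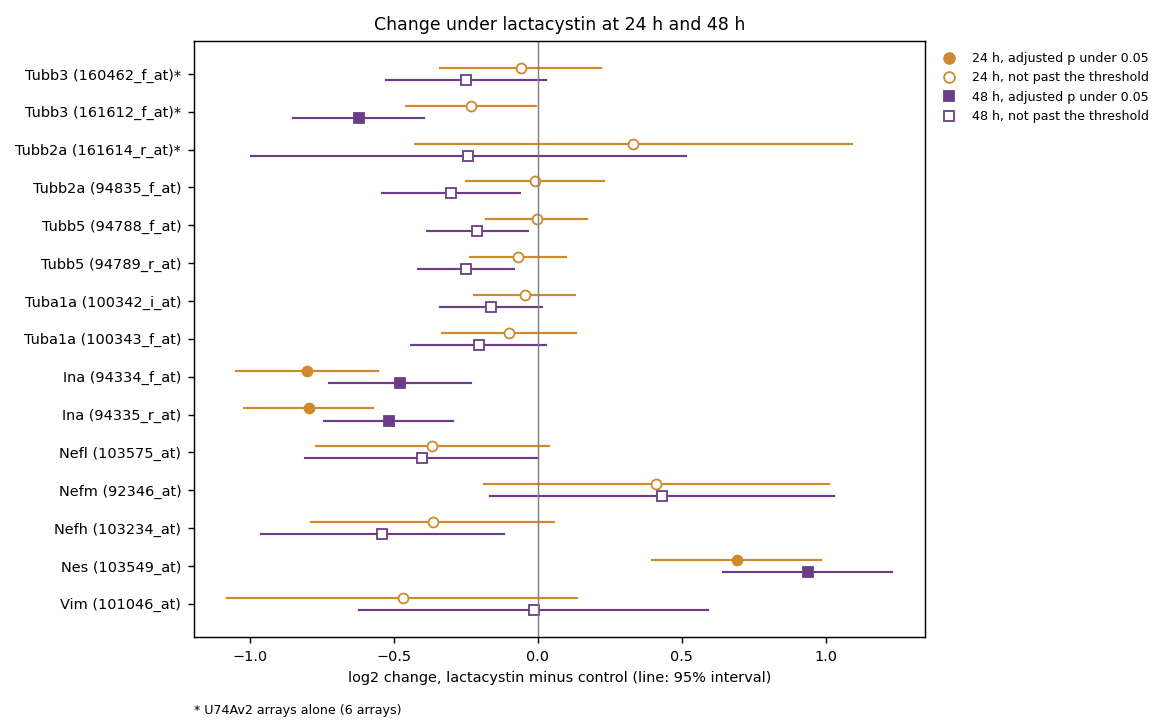
Change of each tested member probe set under lactacystin at 24 h (circles) and 48 h (squares), as a log2 difference of lactacystin minus control with its 95% interval; filled symbols passed an adjusted p of 0.05, and asterisks mark probe sets fitted on the 6 U74Av2 arrays alone. The Ina probe sets lie at -0.80 at 24 h and at -0.48 and -0.52 at 48 h, Nes lies at 0.69 and 0.94, and every tubulin on both designs has its 48 h value below 0.

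Ina encodes alpha-internexin, a subunit of neuronal intermediate filaments, and 2 probe sets measured it, 94334_f_at and 94335_r_at. The f in 94334_f_at marks probes that can match several members of a gene family, so its values may not be of Ina alone. If the 2 probe sets are independent measures of Ina was not tested. Probe set 94335_r_at had scaled signals of 2789, 4145 and 4172 in lactacystin cultures at 24 h, against 5223 and 7053 in control cultures. At 48 h its signals were 4154, 4036 and 3477 under lactacystin, against 4866 and 5842 in controls. Every lactacystin array lay below every control array of its time. The change was -0.80 ± 0.10 log2 at 24 h (SE, limma adjusted p = 0.00049) and -0.52 ± 0.10 at 48 h (adjusted p = 0.00878), a signal of 0.576 and 0.698 times that of controls.

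Probe set 94334_f_at of Ina had signals of 1898, 4003 and 3798 under lactacystin at 24 h, against 3751 and 6437 in controls. At 48 h they were 4381, 4036 and 2710 under lactacystin, against 3732 and 5771 in controls. Here the groups overlapped at both times, and the U74A array was the lowest of its group in all 4 groups. Within U74A the difference was -0.97 at 24 h and -0.46 at 48 h, and within U74Av2 it was -0.72 and -0.45. The design-adjusted change was -0.80 ± 0.11 at 24 h (limma adjusted p = 0.000928) and -0.48 ± 0.11 at 48 h (adjusted p = 0.0211).

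The change of Ina at 24 h stayed past the threshold without any 1 array, but not without the design covariate (adjusted p = 0.397 for 94334_f_at and 0.0899 for 94335_r_at). At 48 h the call of 94335_r_at was lost without control replicate 1 (adjusted p = 0.101) or control replicate 2 (0.0544). That of 94334_f_at was lost without either of these controls (0.171 and 0.0847) or without lactacystin replicate 1 (0.0509) or 2 (0.0536), and also with quantile normalization (0.0517), in U74Av2 arrays alone (0.0541), with eBayes without a trend (0.0615) and without the design covariate (0.831, against 0.376 for 94335_r_at).

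Nefl, Nefm and Nefh encode the light, medium and heavy neurofilament subunits, and each had 1 probe set of low signal. The signals were 83.4 to 177 for Nefl, 70.1 to 279 for Nefm and 47.7 to 144 for Nefh. All were above the pseudocount of 32, which understates changes at low signals. Nefl (103575_at) had signals of 129, 87.3 and 128 under lactacystin at 24 h, against 177 and 147 in controls. Its 48 h signals were 111, 83.4 and 124 under lactacystin, against 176 and 136 in controls. All lactacystin arrays were below the controls of their time. The change of Nefl was -0.37 ± 0.19 at 24 h (limma adjusted p = 0.212) and -0.40 ± 0.19 at 48 h (adjusted p = 0.204), with 95% intervals of -0.77 to 0.04 and -0.81 to 0.00, so no change passed the test.

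Nefh (103234_at) had signals of 83.3, 74.9 and 71.6 under lactacystin at 24 h, against 144 and 89.7 in controls. In the later samples, at 48 h, Nefh had 47.7, 64.1 and 92.0 under lactacystin, against 142 and 96.8 in controls. The groups did not overlap at either time, with the lactacystin arrays lower. The change was -0.37 ± 0.19 (limma adjusted p = 0.232) at 24 h and -0.54 ± 0.19 (adjusted p = 0.103) at 48 h, neither past the threshold. The 48 h change of Nefh passed with quantile normalization (adjusted p = 0.046) and with eBayes without a trend (adjusted p = 0.0495).

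Nefm (92346_at) went the other way in sign, without passing the test. Its signals were 279, 121 and 155 under lactacystin at 24 h, against 160 and 103 in controls, and the groups overlapped. At 48 h they were 129, 125 and 82.5 under lactacystin, against 84.4 and 70.1 in controls, again overlapping. The change was 0.41 ± 0.27 at 24 h (limma adjusted p = 0.348) and 0.43 ± 0.27 at 48 h (adjusted p = 0.373). With 1 array left out the change of Nefm was 0.083 to 0.58 at 24 h and 0.30 to 0.83 at 48 h, lowest at 24 h without lactacystin replicate 1 and highest at 48 h without lactacystin replicate 3 (adjusted p = 0.0494). Within U74A the 48 h difference was -0.023, and within U74Av2 it was 0.64. Over the 5 probe sets of neuronal filaments on both designs, none was called higher at 24 h or 48 h (8.20% and 6.77% of all tested probe sets). At each time 2 were called lower (6.66% and 3.57% of all), and both were of 1 gene, Ina. The median change of the 5 was -0.37 at 24 h and -0.48 at 48 h.

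**Figure D2:**
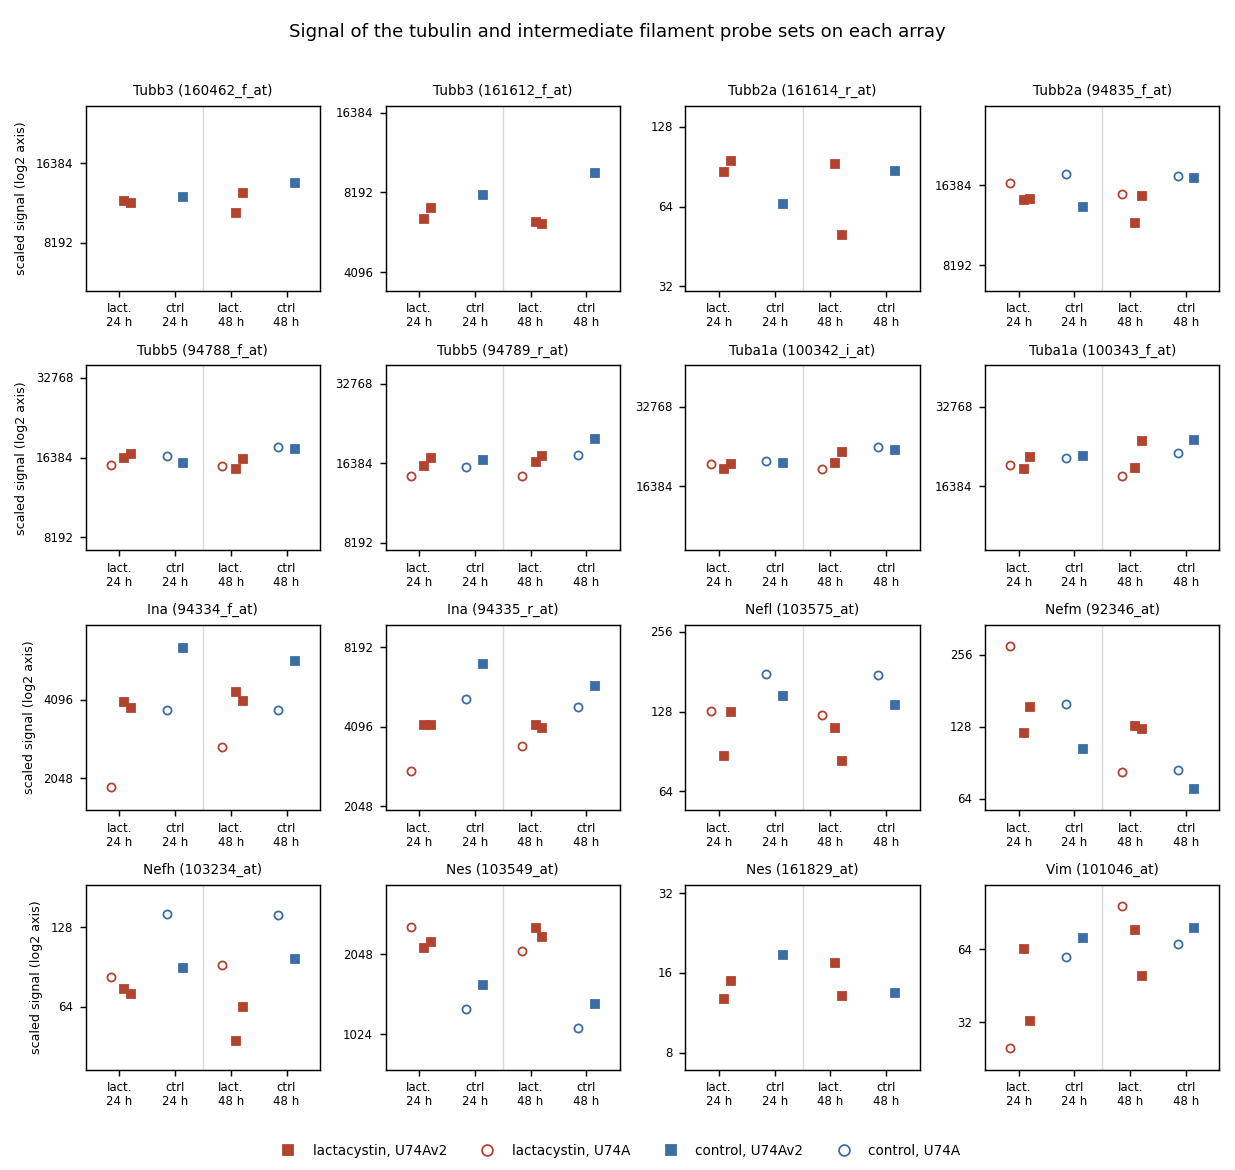
Scaled signal of the 16 member probe sets on each array (log2 axis, with a range set per panel), with lactacystin left of control at 24 h and at 48 h; filled squares are U74Av2 arrays and open circles U74A arrays. Both Ina probe sets are lower under lactacystin within each design, Nes (103549_at) has every lactacystin array above every control, and the tubulins of high signal differ by little at 24 h.

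Nes encodes nestin, the filament protein of neural progenitors, and it was the member that rose. Probe set 103549_at had signals of 2605, 2158 and 2271 under lactacystin at 24 h, against 1276 and 1569 in controls. Nes signals at 48 h were 2580, 2392 and 2113 under lactacystin, against 1081 and 1324 in controls. Each lactacystin array was above all 4 control arrays. Nes rose by 0.69 ± 0.13 log2 at 24 h (SE, limma adjusted p = 0.00596) and by 0.94 ± 0.13 at 48 h (adjusted p = 0.00164), which is 1.61 and 1.91 times the control signal.

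The difference for Nes within U74A was 1.01 at 24 h and 0.95 at 48 h, and within U74Av2 it was 0.49 and 0.89. Without control replicate 1 at 24 h, an array of U74A, the 24 h change was 0.59 (adjusted p = 0.0634), and leaving out any other array kept it past the threshold. The 48 h change was past the threshold without any 1 array. The other Nes probe set, 161829_at on U74Av2 alone, had signals of 12.7 to 18.7 on all 6 arrays, under the pseudocount, and was not tested.

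Vim, the vimentin gene, was dim here: its probe set 101046_at had signals of 25.0, 64.1 and 32.4 under lactacystin at 24 h, against 59.6 and 70.8 in controls. Vim signals at 48 h were 76.6, 49.6 and 96.0 under lactacystin, against 67.2 and 77.9 in controls. The groups overlapped at both times. Its change was -0.47 ± 0.28 at 24 h (limma adjusted p = 0.286) and -0.01 ± 0.28 at 48 h (adjusted p = 0.987). The 95% intervals of -1.08 to 0.14 and -0.62 to 0.59 contain 0, and they are the widest of the 12 members on both designs.

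Tubb3, the class III beta tubulin of neurons, was measured by 2 probe sets on the 6 U74Av2 arrays alone, where each control group has 1 array. In the fit of these 6 arrays the spread came from the lactacystin groups, so its SE and p do not measure spread between control arrays. In that fit 7.56% of 8696 probe sets were called at 24 h and 4.99% at 48 h (1.85% lower). Probe set 161612_f_at had signals of 6523 and 7157 under lactacystin at 24 h, against 8042 in the control. Signals at 48 h were 6328 and 6246 under lactacystin, against 9705 in the control. At each time the 2 lactacystin arrays were below the 1 control array. No share over all probe sets was taken for such an order of 2 arrays against 1. The change was -0.23 ± 0.09 at 24 h (limma adjusted p = 0.185) and -0.62 ± 0.09 at 48 h (adjusted p = 0.0241), a signal of 0.649 times the control's.

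Probe set 160462_f_at of Tubb3 had signals of 11808 and 11630 under lactacystin at 24 h, against 12221 in the control. At 48 h it had 10608 and 12613 under lactacystin, against 13759 in the control. It was below the control on each lactacystin array, by -0.06 ± 0.12 at 24 h (limma adjusted p = 0.782) and -0.25 ± 0.12 at 48 h (adjusted p = 0.257), neither past the threshold. The 48 h call of 161612_f_at was lost with no filter on dim probe sets (adjusted p = 0.0644), with eBayes without a trend (0.107) and without lactacystin replicate 2 or 3 at 24 h (0.0581 and 0.0594). Without lactacystin replicate 2 at 48 h, 160462_f_at was also called (-0.37, adjusted p = 0.0258).

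Tuba1a encodes an alpha tubulin that is abundant in young neurons. Its probe set 100343_f_at had signals of 19746, 19118 and 21072 under lactacystin at 24 h, against 20918 and 21305 in controls, and 19229, 24374 and 17981 under lactacystin at 48 h, against 21910 and 24461 in controls. These groups overlapped. Probe set 100342_i_at had 19847, 19123 and 19888 under lactacystin at 24 h, against 20394 and 20018 in controls, and 20010, 22158 and 19144 under lactacystin at 48 h, against 23069 and 22522 in controls. These lactacystin arrays were all below the controls of their time. The change of 100343_f_at was -0.10 at 24 h and -0.21 at 48 h, and that of 100342_i_at was -0.05 and -0.16, with limma adjusted p of 0.235 to 0.75. The signals of Tuba1a were 82.6% to 100% of the highest signal on each array, and the part of this in the small changes was not tested.

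Tubb5, the class I beta tubulin found in most cell types, had signals of 15300, 16262 and 16843 (94788_f_at) under lactacystin at 24 h, against 16631 and 15675 in controls. Tubb5 signals at 48 h were 14864, 16174 and 15161 under lactacystin, against 17951 and 17626 in controls. The groups overlapped at 24 h, and at 48 h the lactacystin arrays were lower. Its change was -0.01 ± 0.08 at 24 h (limma adjusted p = 0.982) and -0.21 ± 0.08 at 48 h (adjusted p = 0.124). The other probe set of Tubb5, 94789_r_at, changed by -0.07 ± 0.08 at 24 h (limma adjusted p = 0.587) and -0.25 ± 0.08 at 48 h (adjusted p = 0.0591). At 48 h its signals were 16562, 17450 and 14606 under lactacystin, against 17595 and 20180 in controls.

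Tubb2a, a beta tubulin of neurons, had signals of 16733, 14416 and 14548 (94835_f_at) under lactacystin at 24 h, against 18115 and 13578 in controls. At 48 h it had 11853, 14949 and 15268 under lactacystin, against 17756 and 17472 in controls. The groups overlapped at 24 h but not at 48 h, where lactacystin was lower. Its change was -0.01 ± 0.11 at 24 h (limma adjusted p = 0.967) and -0.30 ± 0.11 at 48 h (adjusted p = 0.107). The other Tubb2a probe set, 161614_r_at on U74Av2, had signals of 49.9 to 95.0 and changes of 0.33 ± 0.31 and -0.24 ± 0.31 (limma adjusted p = 0.557 and 0.691).

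None of the 5 tubulin probe sets on both designs was called at 24 h or 48 h, and 0 of the 5 at 24 h and 3 of the 5 at 48 h had an unadjusted limma p under 0.05, which 29.4% and 24.8% of all tested probe sets had. Their median change was -0.05 at 24 h and -0.21 at 48 h, with values at 48 h of -0.30 to -0.16. Leaving out lactacystin replicate 2 at 48 h brought Tuba1a (100343_f_at, -0.32, adjusted p = 0.0416) and Tubb2a (94835_f_at, -0.39, adjusted p = 0.0414) past the threshold, and leaving out lactacystin replicate 1 at 24 h did so for Tubb5 (94789_r_at, adjusted p = 0.0386). An f in a probe set's name marks probes that can match several members of a gene family, and tubulin genes are close to each other in sequence, so values of single tubulin genes are uncertain between these copies. A further probe set, 98759_f_at, annotated to 4 alpha tubulin genes with Tuba1a among them and not counted as a member, had signals of 17332 to 21491 and changes of -0.0011 ± 0.08 and -0.14 ± 0.08 (limma adjusted p = 0.996 and 0.324).

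Between the times, none of the 12 member probe sets on both designs passed the test in controls (0% of all tested probe sets were called), in lactacystin cultures (11.6% of all) or for the difference between the lactacystin effects (1.23% of all). At an unadjusted limma p under 0.05 there were 1, 3 and 0 of the 12, where the shares of all tested probe sets were 5.6%, 26.7% and 16.2%. The effect on Nes at 48 h minus that at 24 h was 0.25 ± 0.19 (limma adjusted p = 0.564), and that on Ina was 0.32 ± 0.16 (94334_f_at, adjusted p = 0.344) and 0.28 ± 0.14 (94335_r_at, adjusted p = 0.371). Tubb3 (161612_f_at) had a difference of -0.39 ± 0.13 (adjusted p = 0.224). A smaller effect on Ina at 48 h than at 24 h, or a larger one on Nes or Tubb3, was therefore not shown. The comparisons at 24 h and 48 h have control arrays of their own and share 1 estimate of the spread.

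Among related genes, chosen with earlier results of these data known, the list of other intermediate filaments held Gfap and Lmna, and its other tested gene, Lmnb2, was not called (-0.40 and -0.19, limma adjusted p = 0.0995 and 0.49). Gfap, the astrocyte filament gene (94144_g_at), had signals of 162, 188 and 208 under lactacystin at 24 h, against 291 and 320 in controls, and 863, 795 and 864 under lactacystin at 48 h, against 334 and 264 in controls. It was thus below the controls at 24 h and above them at 48 h on every array. Gfap fell by 0.64 ± 0.15 at 24 h (limma adjusted p = 0.0153) and rose by 1.40 ± 0.15 at 48 h (adjusted p = 0.000328), and these effects differed by 2.04 ± 0.21 (adjusted p = 0.00186). Its other probe set, 94143_at, of signals from 11.5 to 179, changed by -1.09 ± 0.27 (adjusted p = 0.0201) and 0.77 ± 0.27 (adjusted p = 0.0976). The 24 h call of 94144_g_at was lost without control replicate 1 or 2 or lactacystin replicate 1 (adjusted p = 0.055, 0.178 and 0.0619).

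Lmna, which encodes the nuclear lamins A and C, had signals of 2412, 2406 and 2233 (98059_s_at) under lactacystin at 24 h, against 766 and 655 in controls, and 1247, 1284 and 1030 under lactacystin at 48 h, against 857 and 775 in controls. All lactacystin arrays were above all controls. Lmna rose by 1.69 ± 0.13 at 24 h (limma adjusted p = 3.27e-05) and by 0.52 ± 0.13 at 48 h (adjusted p = 0.0274), with a difference between the effects of -1.17 ± 0.18 (adjusted p = 0.0128). Its other probe set, 98060_at, changed by -0.10 and 0.15 (adjusted p = 0.749 and 0.676) and so did not show the rise. The 48 h call of 98059_s_at was lost without control replicate 1 or 2 or lactacystin replicate 1 or 2 of that time (adjusted p = 0.0899, 0.254, 0.0759 and 0.0709). Of 3 tested genes of this list, 1 was higher and 1 lower at 24 h (8.20% and 6.66% of all tested probe sets). At 48 h 2 were higher (6.77% of all).

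Of 7 other tubulin genes tested, 1 was higher at 24 h (8.20% of all tested probe sets) and 1 was lower at 48 h (3.57% of all). Their medians were -0.07 and -0.15. Tuba4a, an alpha tubulin (92635_at), had signals of 588, 433 and 463 under lactacystin at 24 h, against 326 and 225 in controls, and 193, 173 and 280 under lactacystin at 48 h, against 386 and 257 in controls. Lactacystin was above the controls at 24 h and overlapped them at 48 h. Tuba4a rose by 0.87 ± 0.13 at 24 h (limma adjusted p = 0.00137), stood at -0.44 ± 0.13 at 48 h (adjusted p = 0.0566), and the effects differed by -1.30 ± 0.18 (adjusted p = 0.00808). Tubb4a, a beta tubulin of brain (101419_at), fell by 0.63 ± 0.13 at 48 h (limma adjusted p = 0.0116) with signals of 2145, 2275 and 2832 under lactacystin, against 3719 and 3771 in controls, and stood at -0.29 ± 0.13 at 24 h (adjusted p = 0.167). Its 48 h call was lost without control replicate 1 or 2 of that time (adjusted p = 0.074 and 0.134).

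Of 6 tested genes of tubulin folding and modification, 1 rose at 24 h (8.20% of all tested probe sets). None was called at 48 h (10.3% of all), when 3 had an unadjusted limma p under 0.05 (24.8% of all). Tbcel, a relative of the tubulin cofactor TBCE, rose by 0.46 ± 0.13 at 24 h (limma adjusted p = 0.0363) and stood at 0.32 ± 0.13 at 48 h (adjusted p = 0.153). Of 11 filament linkers and kinases none was called at 24 h (14.9% of all), with 2 at an unadjusted limma p under 0.05 (29.4% of all). At 48 h 2 of the 11 rose (6.77% of all). These were Plec, the plectin linker (0.65 ± 0.18, limma adjusted p = 0.0399), and the mitotic kinase Aurkb, which phosphorylates vimentin (0.69 ± 0.18, adjusted p = 0.0342). The calls of Tbcel, Plec and Aurkb were each lost without single arrays of the groups compared (adjusted p of up to 0.367, 0.169 and 0.285). The 48 h change of Aurkb was 0.36 without control replicate 1 of that time and 1.08 without control replicate 2, and it was 1.21 within U74A and 0.30 within U74Av2.

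**Figure D3:**
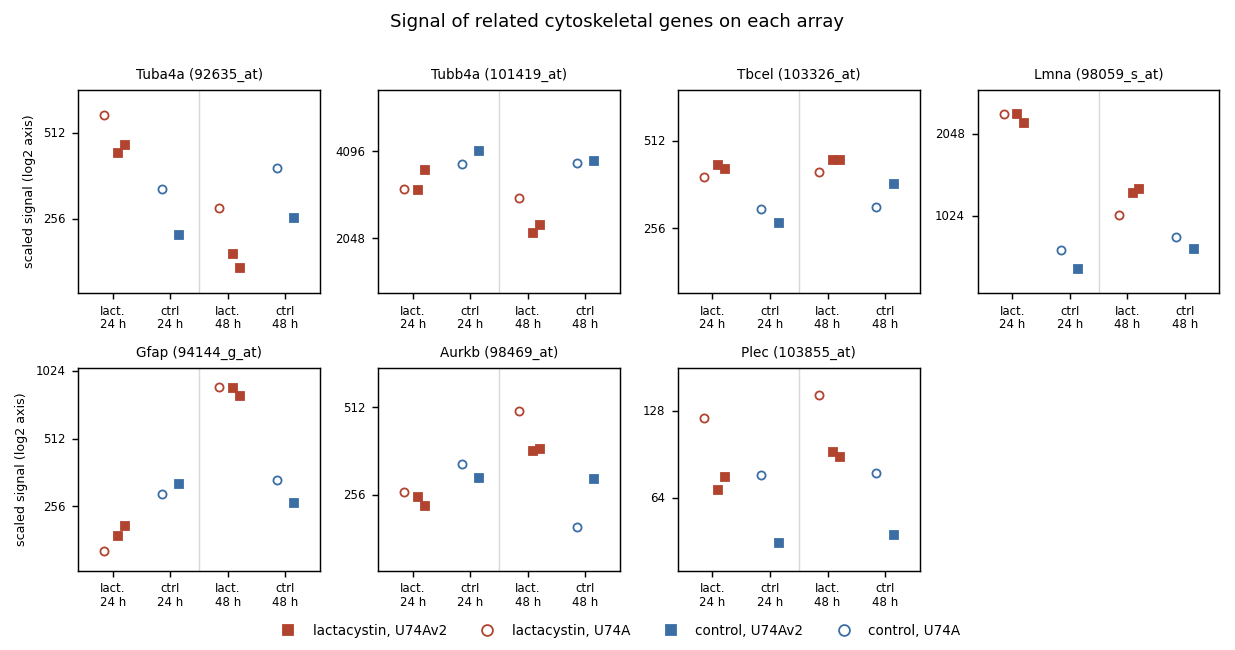
Scaled signal of 7 related cytoskeletal genes on each array (log2 axis, with a range set per panel), with lactacystin left of control at 24 h and at 48 h; filled squares are U74Av2 arrays and open circles U74A arrays. Gfap is below the controls at 24 h and above them at 48 h, Lmna is above them at both times, and Tuba4a is above them at 24 h alone.

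Markers of the labelled cells and of others moved as well. Of 14 measured neuron markers, 5 were lower at 24 h (6.66% of all tested probe sets) and 5 at 48 h (3.57% of all). None of the markers was called higher, and their medians were -0.42 and -0.40. Among them Stmn2, a tubulin-binding protein of growing axons, fell by 0.74 ± 0.11 at 24 h (limma adjusted p = 0.00107) and by 0.57 ± 0.11 at 48 h (adjusted p = 0.00681), and Mapt, the microtubule protein tau, fell by 0.45 ± 0.10 at 48 h (adjusted p = 0.0157). At 24 h 7 of the 14 had an unadjusted limma p under 0.05 (29.4% of all), 1 of them higher (1025 of all 6984). The higher marker was Thy1 (0.45 ± 0.14, limma adjusted p = 0.0557), and Eno2 stood at 0.19 ± 0.14 (adjusted p = 0.402). The summed signal of the 14 was 35496.5 to 39035.3 under lactacystin at 24 h, against 46855.2 to 54344.2 in controls, and 35614.1 to 47432 under lactacystin at 48 h, against 53028.7 to 58497.8 in controls. No neuron marker was under the pseudocount on all arrays. Fewer neurons and less RNA per neuron cannot be told apart in these bulk samples, and the part of either in the changes of Ina and Tubb3 was not tested.

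Beside the rise of Nes, 0 of 7 progenitor markers were higher at 24 h (8.20% of all tested probe sets). At an unadjusted limma p under 0.05 0 of the 7 were higher at 24 h (1025 of all 6984). Of these markers 1 was lower at 24 h (6.66% of all), and 4 were higher at 48 h (6.77% of all). Their sum was 6199.3 to 8731.8 under lactacystin at 24 h, against 6330.7 to 8162.4 in controls, and 9502.9 to 10789.4 under lactacystin at 48 h, against 6395.5 to 6774.1 in controls. The sums overlapped at 24 h and did not at 48 h, and Sox2 had the highest mean signal among these probe sets. The called genes at 48 h were Sox2 (0.72 ± 0.13), Prom1 (0.79 ± 0.14), Notch1 (0.82 ± 0.15) and Mki67 (0.89 ± 0.19), with limma adjusted p of 0.00518 to 0.0124. None of the 7 was under the pseudocount on all arrays.

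Of 8 tested astrocyte and radial glia markers, 1 was higher and 3 lower at 24 h (8.20% and 6.66% of all tested probe sets). At 48 h 3 were higher (6.77% of all). The summed signal of all 9 measured was 13522.2 to 21624.4 under lactacystin at 24 h, against 16883.6 to 25196.2 in controls, and 24481.6 to 30890.1 under lactacystin at 48 h, against 19234.9 to 27231.8 in controls, overlapping at both times. None of the 9 was under the pseudocount on all arrays. The median design-adjusted change of the 8 tested was -0.36 at 24 h and 0.58 at 48 h. Sums of all marker lists pool both designs without adjustment, and the part of design in their overlaps was not tested.

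Of 9 tested microglia and macrophage markers 1 was higher at 24 h (8.20% of all tested probe sets) and 3 at 48 h (6.77% of all). Itgam was under the pseudocount on all arrays. The summed signal of all 12 measured was 953.1 to 1766 under lactacystin at 24 h, against 924.5 to 1214.7 in controls, and 1257.8 to 2138.3 under lactacystin at 48 h, against 772 to 1521.4 in controls, overlapping at both times. Of 10 tested fibroblast, mural and meningeal markers 1 was higher and 1 lower at 24 h (8.20% and 6.66% of all). At 48 h 2 were higher (6.77% of all), and none of the 10 was under the pseudocount on all arrays. The summed signal of all 11 measured was 3074.6 to 4317.9 under lactacystin at 24 h, against 3049.8 to 3110 in controls, and 3847.4 to 5678 under lactacystin at 48 h, against 2924.3 to 3064.6 in controls, and at 48 h these did not overlap. None of 3 tested oligodendrocyte markers was called at 24 h (1 at an unadjusted limma p under 0.05) or at 48 h (0), and none of 2 tested endothelial markers at 24 h (0) or 48 h (1). Of all tested probe sets 14.9% were called at 24 h and 10.3% at 48 h, and 29.4% and 24.8% had such an unadjusted p. Mag and the endothelial genes Cdh5, Tek, Cldn5 and Tie1 were under the pseudocount on all arrays. The part of any of these cells in the changes of Nes and Gfap was not tested.

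Over the 10 arrays, with design adjusted, the genes whose log2 values were most like those of Nefl were Septin6 (Pearson r = 0.971), Myt1l (0.943) and B3galnt1 (0.924). Those most like Vim were Camk4 (0.96), Gria2 (0.949) and Dpp8 (0.944). For Tubb3 (160462_f_at), over its 6 arrays, they were Ndfip2 (0.992), Smyd2 (0.968) and Slc37a4 (0.967). Chosen after their values were seen, the genes most like Ina (94335_r_at) were Dhcr7 (0.979), Neurod6 (0.975) and Mllt1 (0.974), and those most like Nes were Prdx4 (0.983), Emc8 (0.98) and Dap (0.979). These are descriptions of few arrays that share their groups and their scaling, picked from all named genes tested.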

How the data were processed

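RNA of 10 samples in 4 groups was measured on Affymetrix arrays. Deposited tables hold intensities (a linear signal for each probe set), and the submitters' processing notes name MAS5 without a version. Each array was scaled to a 2% trimmed mean of 500 over the 9977 shared probe sets, a pseudocount of 32 was added and log2 taken, which understates changes of low genes. The lowest 30% by mean signal were left out. Tests were two-sided in limma 3.58.1 (R 4.3.3; lmFit, eBayes with trend), with the 4 groups and array design in 1 fit of 10 arrays, 5 residual degrees of freedom, and Benjamini-Hochberg adjustment over 6984 probe sets at a threshold of 0.05. Probe sets on U74Av2 alone were fitted on 6 arrays over 8696 probe sets, with 2 residual degrees of freedom, which come from the lactacystin groups. Culture batch or processing date cannot be told apart from array design. Precision is limited by the number of arrays.

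The members, lists and naming rules were chosen with earlier results of these data known. All member probe sets are named. In related lists a gene is represented by its brightest probe set, and up to 4 genes past the threshold are named. Lmnb2 and the cell type markers named beyond this were chosen after their values were seen. On simulated data with 200 changed probe sets among 6984, 77.6% of 2-fold changes were recovered at 24 h and 73.1% at 48 h. For 1.5-fold changes 32.8% and 25.4% were recovered, with 7.43% and 3.68% of calls false. The false share at 24 h was above the threshold of 0.05. The 200 are fewer than the 1038 and 722 called in the data at 24 h and 48 h, so these rates may not hold there. Alternatives were other pseudocounts, scalings, filters, designs, variance models, a replicate block, 1 time alone and each array left out.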

Additional observations from a re-analysis of the deposited data

Results flagged for a closer look

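The effect of lactacystin differed between the times, by the test of the difference itself, for 3 of the related cytoskeletal genes. Of all tested probe sets 1.23% were called for this difference. Called were 1 of 7 other tubulins and, of 3 other intermediate filament genes, 1 with a difference above 0 and 1 below. Of 6 genes of tubulin folding and modification and 11 filament linkers and kinases 0 were called. For Gfap the effect at 48 h minus that at 24 h was 2.04 log2 (limma adjusted p = 0.00186), and its other probe set gave 1.86 (adjusted p = 0.0396). For Tuba4a the difference was -1.3 (limma adjusted p = 0.00808), and it was not past the threshold without the design covariate (adjusted p = 0.506), without control replicate 2 at 24 h (adjusted p = 0.0575), without control replicate 1 at 48 h (0.052) or in the U74Av2 arrays alone (0.0898). For Lmna (98059_s_at) it was -1.17 (limma adjusted p = 0.0128), against 0.25 ± 0.25 for its other probe set, 98060_at (adjusted p = 0.665). The difference for 98059_s_at was not past the threshold without the design covariate (adjusted p = 0.183), without control replicate 2 at 24 h (adjusted p = 0.0992), without control replicate 1 at 48 h (0.0938) or in the U74Av2 arrays alone (0.0716). In the marker lists the effects also differed for Aqp4, the astrocyte water channel (2.38, limma adjusted p = 0.00186), and Id4 (0.74, adjusted p = 0.0454). Aqp4 and Gfap were the 2 called of 8 astrocyte and radial glia markers, and Id4 the 1 called of 7 progenitor markers (1.23% of all tested probe sets). Of the 14 neuron markers 0 were called. Groups of 2 and 3 arrays were not tested for single outlying samples.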

How the results depend on the processing

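The count of member probe sets called was 3 at each time, and stayed at 3 at 24 h under other pseudocounts, scalings and filters. Without the design covariate it was 1 at 24 h and 1 at 48 h. Leaving out 1 array gave 2 to 3 at 24 h and 1 to 4 at 48 h. The U74Av2 arrays alone gave 2 at 48 h.

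Numbers of all called probe sets moved more. At 24 h the count was 248 without the design covariate, 558 in the U74Av2 arrays alone, and 308 to 1107 with 1 array left out. At 48 h it was 110, 388 and 209 to 826, and 440 with the 48 h arrays alone. Between the times under lactacystin it was 138 without the design covariate and 329 to 831 with 1 array left out, and in controls 0 to 2 with 1 array left out. For the difference between effects it was 48 with no filter, 2 without the design covariate, 12 in the U74Av2 arrays alone, 36 without a trend, and 5 to 186 with 1 array left out. The cause was not tested.

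Changes that turned sign were small and not called. Tubb5 (94788_f_at) at 24 h was 0.048 with quantile normalization, 0.078 in U74Av2 alone and -0.075 to 0.056 with 1 array left out. Tubb2a (94835_f_at) at 24 h was 0.052, 0.093 and -0.15 to 0.111 in the same settings, and 0.0040 with the 24 h arrays alone. Vim at 48 h was 0.029 with the 48 h arrays alone and -0.29 to 0.175 with 1 array left out, and Tubb2a (161614_r_at) -0.547 to 0.063. Between the times, Ina (94334_f_at) in controls was -0.176 to 0.012, Nes under lactacystin -0.073 to 0.176 and Ina (94335_r_at) under lactacystin -0.022 in U74Av2 alone. The difference between effects was -0.294 to 0.0090 for Tbcel with 1 array left out and -0.020 for Plec with quantile normalization.

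Arrays deviated together where they shared a design, whatever their number, so this check cannot show if the numbers pair samples. With the replicate block the members called were 3 at 24 h and 3 at 48 h, with Tubb2a (94835_f_at) at 0.016 at 24 h. Without the design covariate the calls of Tuba4a (adjusted p = 0.146), Gfap (0.0633) and Tbcel (0.116) at 24 h and of Tubb4a (0.0626), Lmna (0.109), Aurkb (0.144) and Plec (0.493) at 48 h were lost. The block ended the calls of Tbcel at 24 h (adjusted p = 0.102) and of Aurkb and Plec at 48 h (0.0635 and 0.121). Vim, the neurofilament genes and Plec had low signals, where the pseudocount weighs more, and the brightest tubulins lay near the top of each array. The part of this in the size of their changes was not tested.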
